A study of Mus musculus with 47 samples.

Results

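The comparison described here sets Nkx2.2-/- cells against wild-type (WT) cells of mouse on day 3.5 and on day 5.5 of neural differentiation. Its members are 4 of the 47 libraries of the series: 1 library of each genotype on each day, chosen by the genotype and day in their titles. Every library of the 4 came from embryonic stem (ES) cells grown as a monolayer in N2B27 medium. All 4 received retinoic acid and SAG1.3, an agonist of Smoothened that switches on Sonic hedgehog (SHH) signalling, for the first 3.5 days and neither afterwards. On both days the cells carrying prominin, a surface protein of neural progenitors, were isolated with magnetic beads, and poly-A selected RNA was sequenced with a stranded kit.

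The WT cells carry the line label E14.5 and the Nkx2.2-/- cells the label C57BL/6, so genotype and line cannot be told apart in any comparison below. The labels name the genotype as Nkx2.2-/- without describing the allele, and they do not say whether the line is 1 clone. The titles of the later pair give day 5.5, whereas the Stage label of both of these libraries reads 3.5 days; the titles were followed. With 1 library per group there is no error among replicates and no test was made, so every difference is that of 1 library from another.

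NKX2.2 is a homeodomain transcription factor of p3 progenitors, which lie beside the floor plate in the ventral neural tube and give rise to V3 interneurons and, in the hindbrain, to visceral motor neurons and serotonergic neurons. It acts mainly as a repressor in response to SHH, and PAX6 and NKX2.2 oppose each other at the dorsal border of the p3 domain. NKX2.9, encoded by Nkx2-9, is its close paralogue in the same progenitors. Floor plate cells, which express Foxa2 and Shh, lie below them, and motor neuron progenitors, which express Olig2, lie above.

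The promoters of these paralogues are shown because the largest opposite differences between the genotypes within the p3 genes lie in them. Each is the stretch from 250 bases before to 50 bases after the gene's start in RefSeq (GRCm38.p6), on the minus strand, printed 5′ to 3′. The first lies at chr2:147186353-147186652 and the other at chr12:56613235-56613534. Capitals mark a match to TNAAGTG, the core that NKX2 factors bind, here on the opposite strand and searched on both.
Nkx2-2: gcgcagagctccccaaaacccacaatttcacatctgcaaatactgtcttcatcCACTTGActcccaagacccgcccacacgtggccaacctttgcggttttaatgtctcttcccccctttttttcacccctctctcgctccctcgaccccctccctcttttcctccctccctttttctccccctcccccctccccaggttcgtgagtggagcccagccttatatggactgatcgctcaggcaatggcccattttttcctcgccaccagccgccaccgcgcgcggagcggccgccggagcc
Nkx2-9: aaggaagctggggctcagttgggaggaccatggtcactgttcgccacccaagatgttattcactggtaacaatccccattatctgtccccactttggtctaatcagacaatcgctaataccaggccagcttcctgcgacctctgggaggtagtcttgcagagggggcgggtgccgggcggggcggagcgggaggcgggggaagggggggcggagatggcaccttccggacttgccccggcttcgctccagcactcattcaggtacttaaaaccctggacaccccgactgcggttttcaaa
The Nkx2-2 stretch held 1 match, from base -197 to base -191 relative to the start, and the Nkx2-9 stretch held none. The same letters occur in 3790 of 32851 promoters of that length (11.5%). The letters TGGGTGGTC, the consensus that GLI factors bind, occur in 83 of them (0.253%) and in neither of these.

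Nkx2-2 itself (chromosome 2, 147177546 to 147194243, GRCm38) was measured at 19.6 FPKM in WT and 1.34 FPKM in Nkx2.2-/- cells on day 3.5. FPKM counts fragments per kilobase of transcript, scaled for the size of the library. The day 5.5 levels were 28.7 FPKM in WT and 3.38 FPKM in Nkx2.2-/- cells. Both Nkx2.2-/- libraries therefore lay below both WT libraries, 14.6 times lower on day 3.5 and 8.51 times lower on day 5.5, and neither was at 0. Differences are given from here on as log2(FPKM + 1) in Nkx2.2-/- minus WT cells, which for Nkx2-2 gives -3.14 and -2.76. The added 1 understates differences of genes at low FPKM.

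Nkx2-9 (chromosome 12, 56611389 to 56613284) stood at 58.3 FPKM in WT and 126.9 FPKM in Nkx2.2-/- cells on day 3.5, and at 12.9 and 50.8 FPKM on day 5.5. The Nkx2.2-/- library was the higher one on both days, by 1.11 and 1.90. Nkx6-2, a homeodomain repressor of ventral progenitors, was measured at 50.4 and 107 FPKM on day 3.5 and at 30.1 and 52.3 FPKM on day 5.5, differences of 1.07 and 0.78. Nkx6-1, its relative with a wider ventral domain, stood at 67.2 and 70.8 FPKM on day 3.5 and at 75.5 and 114 FPKM on day 5.5. Its difference was 0.07 on day 3.5 and 0.59 on day 5.5. Lmx1b, a LIM homeodomain factor of serotonergic neurons, was the last of the 5 measured members of the p3 list of 9 genes, and it differed by -0.05 and -0.32. Bulk RNA cannot tell fewer cells of a type from less RNA per cell, which applies to all levels given here.

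As a background for these sizes, the 15141 genes that reached 1 FPKM in any of the 4 libraries were compared. On day 3.5 4.63% of them (701) differed 2-fold or more on the log2(FPKM + 1) scale, 275 higher (1.82%) and 426 lower (2.81%) in Nkx2.2-/- cells. On day 5.5 4.48% (679) did, 244 higher (1.61%) and 435 lower (2.87%). After quantile normalization 46.6% of the day 5.5 genes past 2-fold were the higher ones in Nkx2.2-/- cells, against 35.9% as given here. The median difference over all genes was -0.02 on each day, and 83.8% and 83.9% of the genes lay within 0.5 of zero. On each day 53.6% of all genes lay below zero, which is the background for the counts below zero given later.

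The same measure was taken between WT libraries of the larger experiment of the series, which has 3 of them on each day, grown with SAG throughout and normalized in a separate table. Pairs of these libraries differed 2-fold or more in 3.02%, 3.35% and 6.79% of genes on day 3.5 and in 2.58%, 7.95% and 8.58% on day 5.5. The shares for the Nkx2.2 comparison lay inside both ranges. For many of the genes below, the largest difference among the 3 WT libraries of the same day is given beside the value and called the WT spread. On day 5.5 the pairs with replicate 1 gave the shares of 7.95% and 8.58%, and replicates 2 and 3 gave 2.58%. The WT spreads of day 5.5 can therefore rest largely on 1 library. For Nkx2-2 that spread was 0.33 on day 3.5 and 0.75 on day 5.5, and for Nkx2-9 it was 1.10 and 0.53. For Nkx6-2 it was 1.32 on day 3.5, above the difference between the genotypes, and 0.76 on day 5.5.

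**Figure D1:**
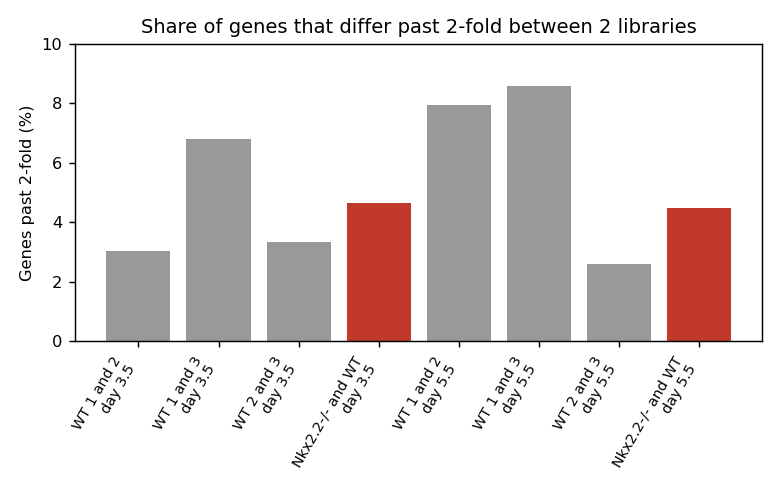
Share of genes (percent, vertical axis) that differed 2-fold or more on the log2(FPKM + 1) scale between 2 libraries. Grey bars are pairs of WT libraries of the larger experiment, named by replicate number, and red bars are the Nkx2.2-/- and WT pair of each day, at 4.63% and 4.48%.

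Across the days, 212 genes (1.4% of those compared) were past 2-fold on both, in the same direction and with differences no more than 1 apart. Of these, 83 were higher in Nkx2.2-/- cells (0.548%) and the others lower (0.852%). Another 263 genes (1.74%) were past 2-fold on day 3.5 and under 0.5 on day 5.5, 93 of them higher (0.614%) and 170 lower (1.12%). The reverse held for 256 genes (1.69%), 86 of them higher (0.568%) and 170 lower (1.12%). Past 2-fold on both days in opposite directions were 22 genes (0.145%), and 19 (0.125%) had the same direction and unequal size. The remaining genes past 2-fold lay between 0.5 and 1 on the other day, and 14014 (92.6%) were not past 2-fold on either day.

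**Figure D2:**
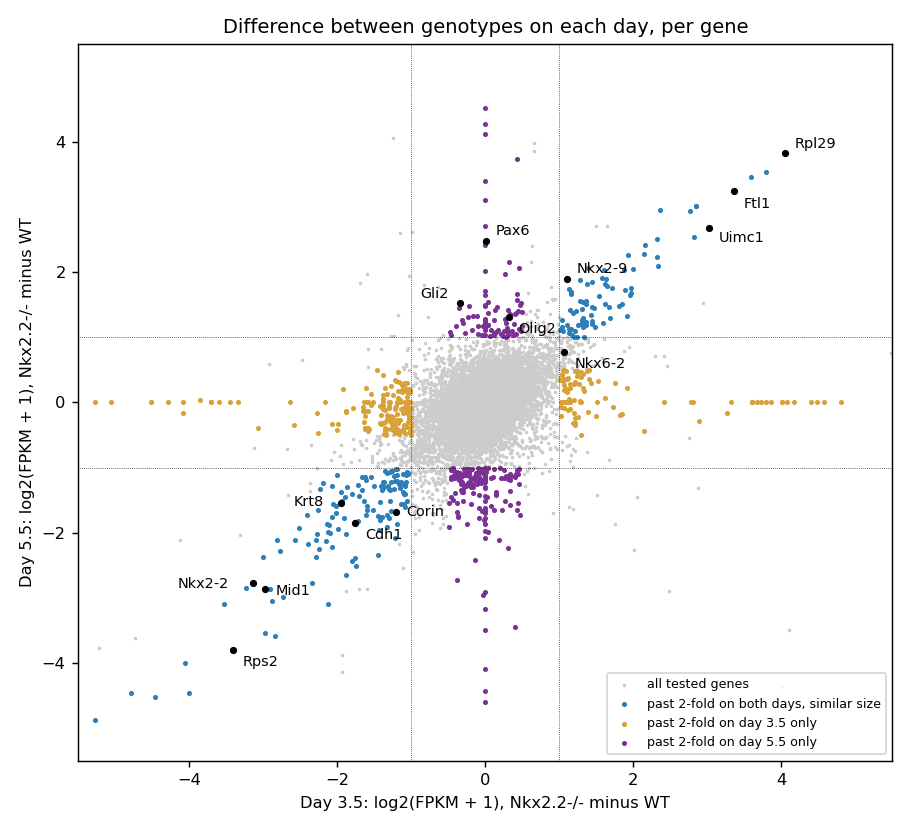
Difference between Nkx2.2-/- and WT cells in log2(FPKM + 1), day 3.5 on the horizontal and day 5.5 on the vertical axis, 1 point per gene, with dotted lines at 2-fold; 12 genes lie outside the axes. Nkx2-2 and Nkx2-9 lie past 2-fold on both days, on opposite sides, and Pax6 and Gli2 lie past it on day 5.5 only.

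Pax6, the PAX factor of progenitors dorsal to the p3 domain (chromosome 2, 105668900 to 105697364), was measured at 18.7 FPKM in WT and 18.9 FPKM in Nkx2.2-/- cells on day 3.5. The day 5.5 levels were 1.95 FPKM in WT and 15.5 FPKM in Nkx2.2-/- cells. The WT library of day 5.5 was the only low one of the 4, and the difference of 2.48 there was the largest of the protein-coding genes named by rule as higher on day 5.5 alone, against a WT spread of 0.35. Day 5.5 minus day 3.5, log2(FPKM + 1) of Pax6 differed by -2.74 in WT and by -0.27 in Nkx2.2-/- cells.

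Olig2, the bHLH factor of somatic motor neuron progenitors, was measured at 2.96 and 3.96 FPKM on day 3.5 and at 0.420 and 2.53 FPKM on day 5.5 in WT and Nkx2.2-/- cells. Its difference of 1.32 on day 5.5 stayed under the WT spread of 1.39. Sp8, a zinc-finger factor of intermediate progenitors, stood at 5.69 and 5.84 FPKM on day 3.5 and at 0.440 and 2.27 FPKM on day 5.5. The day 5.5 difference of 1.18 was above the spread of 0.54. Neurog1, a proneural bHLH factor, stood at 1.85 and 1.67 FPKM and then at 0.387 and 2.12 FPKM, a difference of 1.17 on day 5.5 against a spread of 0.52. In each of these the WT library of day 5.5 was the lowest of the 4. Irx3 and Irx5, Iroquois factors of progenitors dorsal to the motor neuron domain, lay the other way. Irx3 differed by -0.70 and -0.75, and Irx5 by -0.50 and -0.40. The list of intermediate progenitor genes thus held members on both sides, 2 of 5 measured past 2-fold on day 5.5, both higher, with medians of 0.01 and 0.78.

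Among SHH pathway genes, Gli1 and Gli2 were past 2-fold and higher in Nkx2.2-/- cells on day 5.5 and not on day 3.5. Gli1, a transcriptional activator and a direct target of the pathway, was measured at 21.7 FPKM in WT and 17.3 FPKM in Nkx2.2-/- cells on day 3.5, and at 3.99 and 10.6 FPKM on day 5.5. Gli2, the main activator that SHH signalling controls, stood at 11.6 and 8.89 FPKM and then at 1.95 and 7.47 FPKM. In Nkx2.2-/- cells they differed by -0.31 and -0.34 on day 3.5 and were higher on day 5.5, by 1.22 and 1.52. Hhip, which binds and holds back the ligand, stood at 4.26 and 6.66 FPKM and then at 2.87 and 8.93 FPKM. In all 3 the WT library of day 5.5 was the lowest of the 4, and the difference for Hhip on that day was 1.36.

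Ptch1, the receptor that holds Smoothened in check and a target of the pathway, was measured at 229 and 266 FPKM on day 3.5 and at 122 and 234 FPKM on day 5.5, a difference of 0.94 that falls short of 2-fold. The WT spreads on day 5.5 were 0.10 for Ptch1, 0.20 for Hhip, 0.35 for Gli2 and 0.57 for Gli1, so all 4 differences of that day exceeded them. Gli3, the main repressor, differed the other way, at 13.2 and 5.88 FPKM on day 3.5 and 3.32 and 2.51 FPKM on day 5.5, or -1.05 and -0.30. The coreceptors and transducers stayed close to WT: Smo, Sufu, Boc, Cdon and Gas1 lay between -0.41 and 0.17 on both days. Of 11 measured SHH pathway genes of 13 listed, 4 were past 2-fold and higher on day 5.5 and none lower, with a list median of 0.17. Of all genes, 1.61% were past 2-fold and higher on that day. On day 3.5, 1 was past 2-fold and lower and none higher, with a list median of -0.26.

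**Figure D3:**
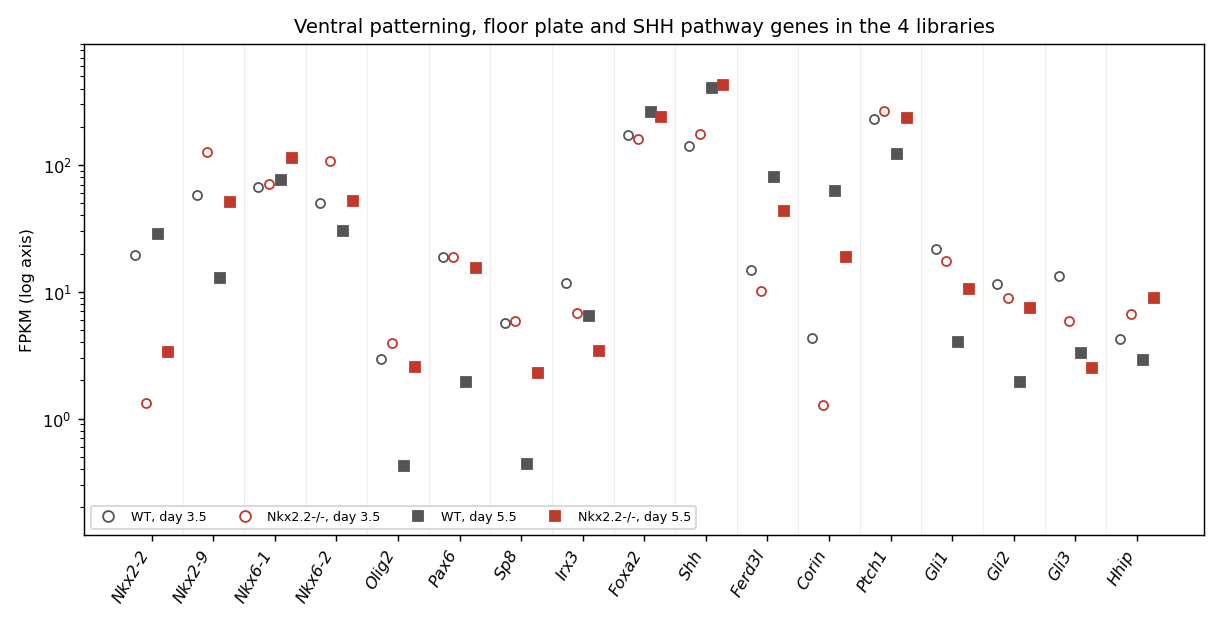
Levels of 17 ventral patterning, floor plate and SHH pathway genes in FPKM (log axis) in each of the 4 libraries; open circles are day 3.5, filled squares day 5.5, grey WT and red Nkx2.2-/-. Pax6, Gli1 and Gli2 are lowest in the WT library of day 5.5, whereas Nkx2-2 is low in both Nkx2.2-/- libraries.

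In the larger experiment, cells lacking Foxa2, which carry the same C57BL/6 line label, were set against other WT libraries, and their values are given beside these without a comparison. On day 5.5 there Pax6 was 1.10 ± 0.26 FPKM in WT and 7.07 ± 3.22 FPKM in Foxa2-/- cells (SD, n = 3 each). Nkx2-9 was 0.858 ± 0.337 and 9.66 ± 1.21 FPKM, and Gli1 was 1.5 ± 0.503 and 7.62 ± 2.78 FPKM. Nkx2-2, by contrast, was 15.1 ± 4.23 FPKM in WT and 58.1 ± 7.46 FPKM in Foxa2-/- cells.

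The floor plate genes Foxa2 and Shh were at high levels in both genotypes. Foxa2, the forkhead factor that specifies the floor plate, was measured at 171 FPKM in WT and 160.5 FPKM in Nkx2.2-/- cells on day 3.5 and at 259 and 239.7 FPKM on day 5.5. Shh, the ligand, stood at 142 and 176 FPKM and then at 403 and 427 FPKM. Neither was far from WT on either day, with differences of -0.10 and -0.11 for Foxa2 and 0.31 and 0.08 for Shh. Corin, a membrane serine protease of the floor plate, was measured at 4.29 and 1.28 FPKM on day 3.5 and at 62.6 and 18.8 FPKM on day 5.5. It was the one member of the list past 2-fold, at -1.21 and -1.68, and the second of these lay under a WT spread of 1.74.

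Vtn, which encodes vitronectin, stood at 138.1 and 72.9 FPKM and then at 498 and 264 FPKM, and differed by -0.91 on both days, less than its WT spreads of 0.93 and 1.09. Ferd3l, a bHLH factor of the floor plate, differed by -0.51 and -0.87, and Spon1, the matrix protein F-spondin, by -0.34 and -0.62, where the WT spreads were 0.38 and 0.67. Of the 16 measured floor plate genes of 17 listed, 14 lay below zero on day 5.5 and 9 on day 3.5, beside 53.6% of all genes. The list medians were -0.07 on day 3.5 and -0.27 on day 5.5. In both genotypes Corin, Vtn, Ferd3l and Spon1 were higher on day 5.5 than on day 3.5; for Corin the day 5.5 level of log2(FPKM + 1) was higher by 3.59 in WT and by 3.12 in Nkx2.2-/- cells.

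Descendants of p3 progenitors were read from lists of their genes. Sim1, Uncx, Neurog3 and Slc17a6 of the p3 list, which also covers V3 interneurons, stayed under 1 FPKM in every library. So did Fev, Tph2 and Slc6a4 of the serotonergic list. The highest of these values was 0.716 FPKM, for Slc6a4 in Nkx2.2-/- cells on day 5.5. Whether V3 or serotonergic neurons were present was not tested. None of the 7 measured visceral motor neuron genes of 9 listed was past 2-fold on either day, and the list medians were -0.12 and 0.21. Among 7 measured genes of the serotonergic list of 10, Slc18a2, the vesicular monoamine transporter, stood at 2.36 and 3.43 FPKM and then at 15.1 and 6.35 FPKM. Its difference of -1.13 on day 5.5 was the only one past 2-fold in that list, against a WT spread of 0.61. Gata2 and Gata3, zinc-finger factors of serotonergic neurons, differed by -0.63 and -0.67 on day 5.5, under WT spreads of 0.73 and 1.39. The list medians were -0.11 and -0.47.

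Of the general neuronal genes, 3 were past 2-fold and lower on day 3.5, where 2.81% of all genes were. Of 15 measured members of the neuron list of 16, all 15 lay below zero on that day, with a median of -0.57. The differences of Dcx, Stmn2, Snap25 and Syt1 were smaller than their WT spreads. Gap43, a growth cone protein, was measured at 10.1 FPKM in WT and 3.68 FPKM in Nkx2.2-/- cells, and Ina, a neuronal intermediate filament, at 11.3 and 4.59 FPKM. Elavl2, a neuronal RNA-binding protein, stood at 6.52 and 2.23 FPKM. These differences of -1.24, -1.14 and -1.22 exceeded the WT spreads of 0.57, 0.85 and 0.90. On day 5.5 the median was -0.21, 12 of 15 lay below zero and none was past 2-fold. Summed over the neuron markers used to check the sort, the level was 56.0 FPKM in WT and 38.4 FPKM in Nkx2.2-/- cells on day 3.5 and 135.5 and 106 FPKM on day 5.5. The part of such cells in other differences was not tested.

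The label of the sorted cells was checked against marker levels. Of the neural progenitor markers, 7 of 7 in the table were at 1 FPKM or more in each, Sox2 and Nes among them, and their summed level was 580 and 666 FPKM on day 3.5 and 891 and 950 FPKM on day 5.5. Markers of other cells were present too: of the neuron markers, 7 of 7 reached 1 FPKM in both WT libraries and 5 and 6 in the Nkx2.2-/- libraries, and of the stromal and smooth muscle markers 5 of 6 did in both WT libraries and 4 and 3 in the Nkx2.2-/- libraries. Genes of replication and mitosis lay close to WT, with 0 of 21 past 2-fold and medians of -0.11 and 0.03. Of 13 measured HOX genes, which mark position along the body axis, 1 was past 2-fold, Hoxd3 on day 5.5 at 2.26 and 0.432 FPKM, where the WT spread was 3.66. In the Notch list, where ligands, receptors and their HES and HEY effectors are grouped, 1 of 15 was past 2-fold: Heyl, an effector, by -1.25 on day 5.5. Nrarp, a feedback target of Notch, differed by -0.64 and -0.84.

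**Figure D4:**
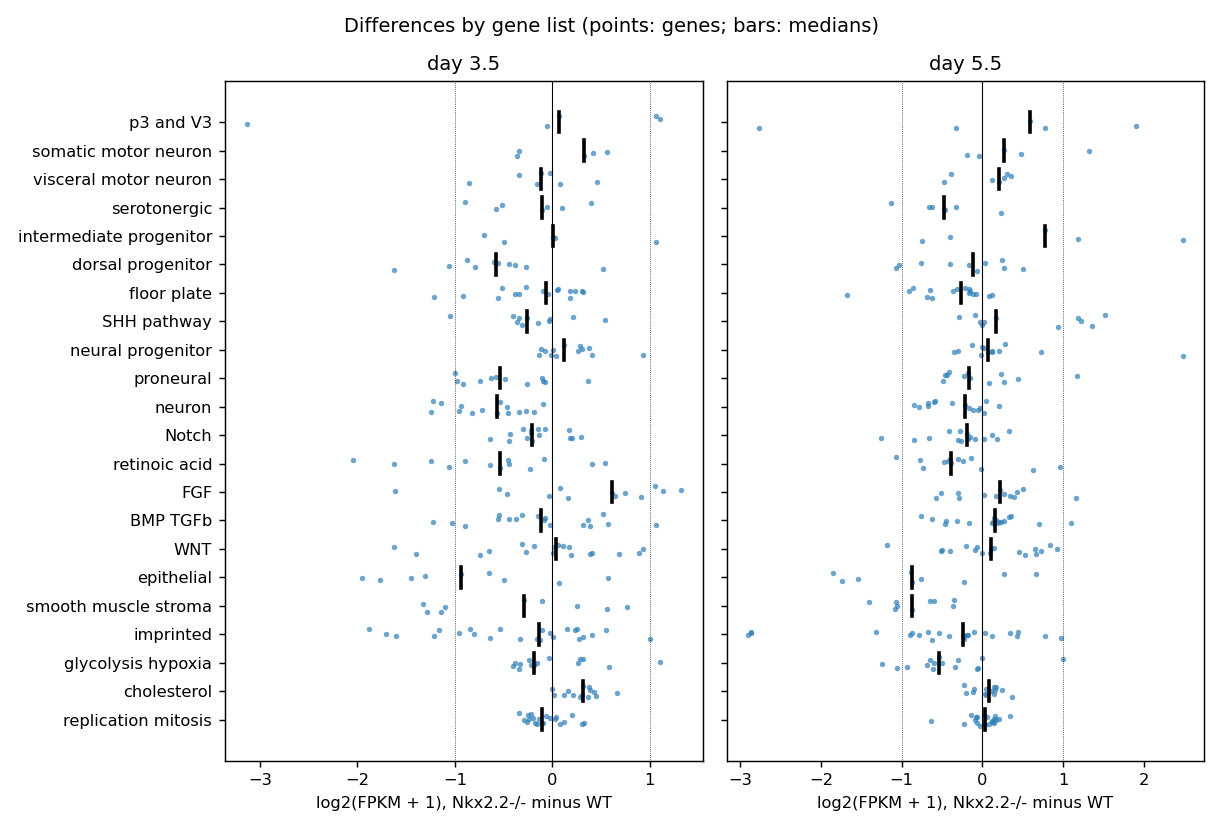
Difference between Nkx2.2-/- and WT cells in log2(FPKM + 1) (horizontal axes) on day 3.5 (left) and day 5.5 (right) for the measured members of 22 gene lists; each point is a gene, black bars are list medians and dotted lines mark 2-fold. The epithelial list has medians of -0.94 and -0.87, and the replication and mitosis list lies close to zero.

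In the lists of retinoic acid handling and of FGF signalling, 4 of 13 measured genes each were past 2-fold on day 3.5 and 1 each on day 5.5. Of all genes, 4.63% and 4.48% were past 2-fold on those days. Cyp26b1, an enzyme that degrades retinoic acid, was measured at 12.1 and 2.16 FPKM on day 3.5 and at 1.52 and 0.479 FPKM on day 5.5. The WT library of day 3.5 was the high one of the 4, and the difference was -2.05 against a WT spread of 0.27. Stra6, a receptor for the retinol carrier, stood at 31.5 and 14.6 FPKM and then at 13.8 and 7.90 FPKM. Stra8 and Aldh1a1, a retinoic acid response gene and a retinaldehyde dehydrogenase, differed by -1.63 and -1.25 on day 3.5, from 3.08 and 1.86 FPKM in WT. Of 13 measured members, 4 were past 2-fold and lower on day 3.5 and 1 on day 5.5, with none higher and medians of -0.54 and -0.39.

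Spry1, an inhibitor of receptor tyrosine kinase signalling that FGF induces, was measured at 11.2 and 29.5 FPKM on day 3.5 and at 4.36 and 10.98 FPKM on day 5.5. Nkx2.2-/- cells had the higher level on both days, by 1.32 and 1.16, against WT spreads of 0.35 and 0.04. Dusp6, a phosphatase of ERK, stood at 51.4 and 108 FPKM and then at 73.0 and 104 FPKM, and Etv5, an ETS factor of the same feedback, at 6.58 and 15.7 FPKM and then at 10.2 and 12.1 FPKM. Their differences were 1.05 and 1.14 on day 3.5 and 0.50 and 0.22 on day 5.5. Fgf15, a ligand, lay the other way at 4.10 and 0.667 FPKM on day 3.5. In this list 3 of 13 measured genes were past 2-fold and higher on day 3.5 and 1 lower, with medians of 0.61 and 0.22.

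Cdh1, Krt8 and Krt18, epithelial genes outside the neural programme, were past 2-fold and lower on both days. Cdh1, which encodes E-cadherin (chromosome 8, 106603351 to 106670246), was measured at 32.1 FPKM in WT and 8.72 FPKM in Nkx2.2-/- cells on day 3.5 and at 12.8 and 2.83 FPKM on day 5.5. Krt8 and Krt18 encode the keratin pair of simple epithelia. Krt8 stood at 58.0 and 14.2 FPKM and then at 20.4 and 6.36 FPKM, and Krt18 at 185 and 66.8 FPKM and then at 91.9 and 26.9 FPKM. In all 3 genes the Nkx2.2-/- library lay below the WT library of its day, with differences of -1.77 and -1.85 for Cdh1, -1.96 and -1.54 for Krt8, and -1.45 and -1.74 for Krt18. Each exceeded the WT spread, although that of Krt8 was 1.75 on day 3.5. Of 9 measured members of the epithelial list 4 were past 2-fold on day 3.5 and 3 on day 5.5, all lower. Of all genes, 2.81% and 2.87% were past 2-fold and lower on those days. Ocln and Cldn7, which encode tight junction proteins, lay above zero on both days, at 0.57 and 0.66 and at 0.07 and 0.26. In the Foxa2-/- cells Cdh1 also lay below WT, at -2.24 on day 3.5 and -2.43 on day 5.5 on the same scale, and differed by 0.06 in undifferentiated cells.

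The noncoding RNAs Meg3, Rian and Mirg of the imprinted Dlk1-Dio3 cluster on chromosome 12 were past 2-fold and lower in Nkx2.2-/- cells on both days. Meg3, its maternally expressed long noncoding RNA, was measured at 156 and 50.8 FPKM on day 3.5 and at 278 and 37.3 FPKM on day 5.5. Rian, a noncoding host of small nucleolar RNAs, stood at 42.8 and 10.9 FPKM and then at 63.1 and 7.59 FPKM, and Mirg, a host of microRNAs, at 7.03 and 1.46 FPKM and then at 9.50 and 0.441 FPKM. All 3 were lower on both days and farther from WT on day 5.5, at -2.87, -2.90 and -2.86, than on day 3.5, at -1.6, -1.88 and -1.71. Dlk1, the paternally expressed gene of the cluster, differed by -0.12 and -0.89. The WT spreads of Meg3 were 0.34 and 0.29, and Rian and Mirg had no value in the larger table. H19 and Igf2, an imprinted pair on chromosome 7, differed by -1.21 and -0.87 and by -1.16 and -1.31. Their spread on day 5.5, 0.92 and 1.57, was larger than those differences. Of 24 measured imprinted genes, 5 were past 2-fold and lower on day 3.5 and 4 on day 5.5, where 2.81% and 2.87% of all genes were. On day 3.5, 1 was past 2-fold and higher. Above zero lay 9 and 7 of the 24, and the list medians were -0.14 and -0.24. Peg12 and Grb10 were among those above, at 1.00 and 0.78 and at 0.55 and 0.97, beyond their WT spreads.

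Genes of other cell types that the sort could carry were also read. Pou5f1, a pluripotency factor, stood at 0.325 and 0.199 FPKM on day 3.5 and at 5.57 and 0.234 FPKM on day 5.5, so that the WT library of day 5.5 alone was high. Summed over the 6 ES cell markers, that library had 16.2 FPKM, and the other WT and the Nkx2.2-/- libraries 5.47, 2.14 and 5.37 FPKM. Klf4, at 9.33 FPKM, and Pou5f1 gave most of the 16.2 FPKM, and Nanog, Zfp42, Esrrb and Tdgf1 were each under 1 FPKM there. Undifferentiated WT cells, normalized separately, had a mean of 895 FPKM of Pou5f1. Whether ES cells had a part in the day 5.5 differences was not tested. Of 9 measured smooth muscle and stromal genes 4 were past 2-fold and lower on each day, where 2.81% and 2.87% of all genes were. Among them was Col1a2, a fibrillar collagen, at 18.4 and 6.97 FPKM and then at 2.61 and 0.721 FPKM. All 4 exceeded their WT spreads on day 3.5. On day 5.5 Col1a2 did, at -1.07 against 1.00, whereas Actc1, Col1a1 and Dcn lay under theirs. On day 3.5, 6 of the 9 lay below zero, and Col1a1 and Col3a1 above it, at 0.56 and 0.77. On day 5.5 all 9 lay below zero, beside 53.6% of all genes. Acta2, smooth muscle actin, stood at 506.9 and 605 FPKM and then at 106 and 69.6 FPKM, and the summed stromal markers at 571 and 643 FPKM and then at 119 and 73.3 FPKM. Markers of endothelium and blood summed to between 0.331 and 0.672 FPKM.

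Of 11 measured ATF4 target genes, 3 were past 2-fold and lower on day 5.5, where 2.87% of all genes were, and 1 on day 3.5. Of 15 measured glycolysis and hypoxia genes, 2 were past 2-fold and lower on day 5.5 and 1 higher on day 3.5. Slc7a11, the cystine transporter and a target of ATF4, was lower on both days, at 2.48 and 0.421 FPKM and then 3.31 and 0.505 FPKM. Asns, asparagine synthetase, and Chac1, a glutathione-degrading enzyme, both ATF4 targets, differed by -1.07 and -1.39 on day 5.5 and by -0.09 and -0.17 on day 3.5. Bnip3 and Pdk1, which hypoxia induces, differed by -1.25 and -1.06 on day 5.5. In the glycolysis and hypoxia list 14 of 15 measured genes lay below zero on day 5.5, with a median of -0.54, and 10 on day 3.5, with a median of -0.18. Eno1, an enolase, lay the other way at 53.1 and 115 FPKM and then at 37.1 and 75.1 FPKM. The 14 measured cholesterol synthesis genes all lay above zero on day 3.5, beside 46.0% of all genes, with a median of 0.31. On day 5.5, 10 of them did, beside 45.9% of all genes, with a median of 0.08. All 14 differences of day 5.5 lay under their WT spreads, and none was past 2-fold on either day.

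Apart from Nkx2-2, the genes with the largest differences shared by both days were not on the lists of neural patterning genes. Mid1, which encodes a ubiquitin ligase of microtubules and lies at the distal end of the X chromosome (169685199 to 170005736), was measured at 665 FPKM in WT and 83.7 FPKM in Nkx2.2-/- cells on day 3.5 and at 492 and 66.5 FPKM on day 5.5. In house mice it spans the boundary of the pseudoautosomal region. The difference of -2.97 and -2.87 compares with WT spreads of 0.58 and 0.14. In the larger table, which was normalized separately, WT cells had means of 24.0 FPKM on day 3.5 and 19.6 FPKM on day 5.5, below the levels of both genotypes here. Uimc1, a subunit of the BRCA1-A DNA repair complex (chromosome 13, 55027880 to 55100300), lay the other way at 14.0 and 121 FPKM and then at 14.7 and 100.03 FPKM, or 3.02 and 2.68.

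Of the 15 protein-coding genes named as higher on both days, Ndufs5, a subunit of mitochondrial complex I, followed with 2.22 and 21.6 FPKM and then 2.83 and 21.2 FPKM. Its WT means in the larger, separately normalized table were 25.7 and 30.3 FPKM, closer to the Nkx2.2-/- than to the WT libraries here. Fbxo44, an F-box protein, Acp1, a low molecular weight phosphatase, Myof, which encodes the membrane repair protein myoferlin, and Myo7a, an unconventional myosin, were higher by 1.61 to 2.03 on either day. Fv1, a retroviral restriction gene whose alleles differ between mouse strains, and its neighbour Miip on chromosome 4 were higher by 1.45 to 1.63. Among the 15 named as lower, Nxf3, an RNA export factor of the testis, stood at 9.67 and 0.137 FPKM and then at 8.67 and 0.335 FPKM. Slc25a31, a germ cell ADP/ATP carrier, stood at 7.85 and 0.107 FPKM and then at 5.41 and 0.241 FPKM. Cd59a, an inhibitor of complement, Gpat2, a glycerol-phosphate acyltransferase of the germline, and Smoc1, a matricellular protein, differed by -2.27 to -1.69.

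Several leading genes have near-identical copies among which reads can be split, and their values are uncertain. Rps2, a ribosomal protein gene, was measured at 254 and 23.1 FPKM on day 3.5 and at 212 and 14.3 FPKM on day 5.5, while its copy Rps2-ps10 stood at 72.7 and 368 FPKM and then at 50.8 and 294 FPKM. Ftl1, the ferritin light chain, stood at 26.0 and 277 FPKM and then at 26.8 and 261 FPKM, while its processed copy Ftl2 stood at 557 and 113 FPKM and then at 559 and 108 FPKM. In each pair the gene and its copy lay on opposite sides of WT. The sum of Ftl1 and Ftl2 was 583 and 390.0 FPKM on day 3.5, a log2 ratio of -0.58, and the sum of Rps2 with Rps2-ps10 and Rps2-ps13 gave 0.47. Rpl29, Rpl3 and Rps18 were other ribosomal protein genes named by the rule, with differences of 4.05, 2.34 and -2.98 on day 3.5. Of the 212 genes of both days, 42 were pseudogenes (19.8%, against 9.74% of the genes compared) and 130 were protein-coding (61.3%, against 82.9%).

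The X chromosome held 24 of the 212 genes (11.3%, against 4.49% of the genes compared). Of these, 9 belonged to the Xlr family of X-linked lymphocyte-regulated genes and pseudogenes, all lower in Nkx2.2-/- cells. Xlr3a, Xlr3b and Xlr3c, which are copies of each other, summed to 38.1 and 1.64 FPKM on day 3.5 and to 28.8 and 1.64 FPKM on day 5.5. Kdm5d, a histone demethylase gene of the Y chromosome, was measured at 1.42 and 4.39 FPKM and then at 1.32 and 6.49 FPKM, whereas its Y-linked neighbours in the list, Ddx3y, Uty and Eif2s3y, lay between -0.23 and 0.19. Within 5 Mb on either side of Nkx2-2, 2 of 75 genes compared were among the 212, and within 20 Mb 6 of 369 (1.63%).

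**Figure D5:**
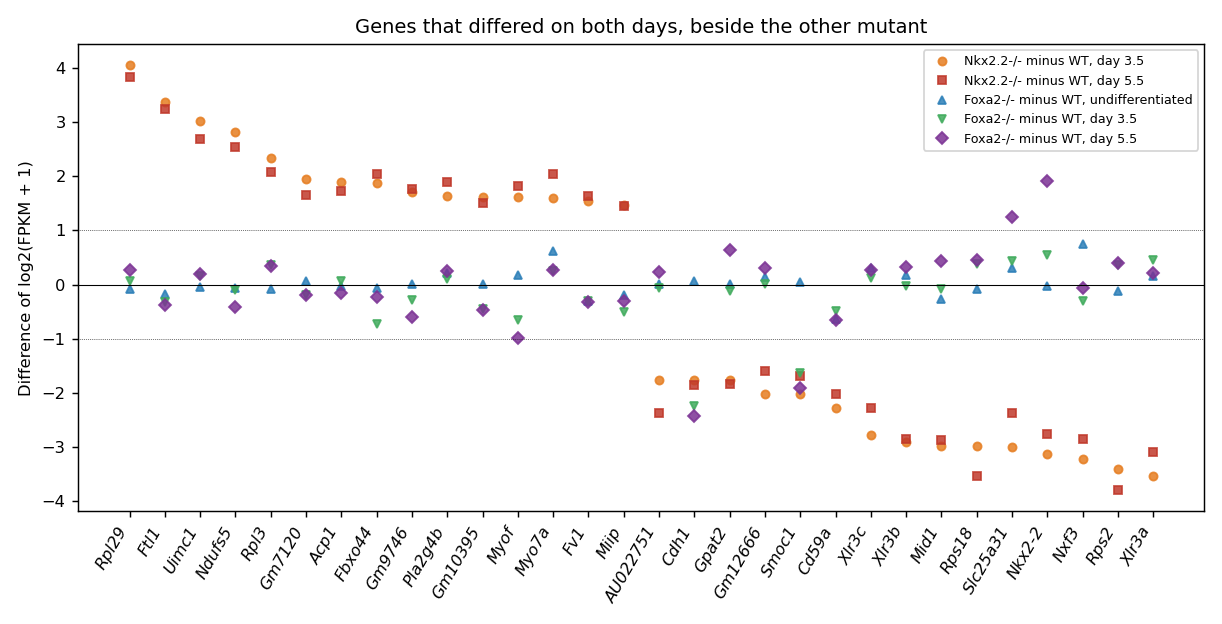
Differences of the 30 protein-coding genes named for both days, as log2(FPKM + 1) in mutant minus WT cells (vertical axis), in the Nkx2.2 comparison (circles and squares, 1 library per group) and for Foxa2-/- cells (triangles and diamonds, differences of group means, 2 or 3 libraries per group). Cdh1 and Smoc1 lie more than 1 below zero in both mutants on days 3.5 and 5.5, and Mid1 and Uimc1 lie within 0.5 of zero in Foxa2-/- cells.

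Of these 30 genes, 0 were past 2-fold in undifferentiated Foxa2-/- cells, 2 on day 3.5 (Cdh1 and Smoc1) and 4 on day 5.5 (the same pair with Nkx2-2 and Slc25a31). Cdh1 and Smoc1 were lower in both mutants. Nkx2-2 and Slc25a31 were higher in Foxa2-/- cells on day 5.5, by 1.91 and 1.25, and lower in Nkx2.2-/- cells, by -2.76 and -2.37. Over all genes in both tables, 0.592%, 3.39% and 7.14% were past 2-fold in those comparisons. Of all the genes of both days, named or not, 196 were in both tables. In undifferentiated Foxa2-/- cells 4 of them were past 2-fold in the direction of the Nkx2.2-/- difference and 2 in the opposite direction. The same counts were 19 and 6 on day 3.5 and 21 and 5 on day 5.5. This overlap was not tested. Mid1 differed by -0.27 in undifferentiated Foxa2-/- cells, -0.09 on day 3.5 and 0.43 on day 5.5, and Uimc1 by -0.05, 0.15 and 0.19. Both mutants carry the same line label, and the WT libraries beside them are different ones. Smoc1 differed by 0.04 in undifferentiated Foxa2-/- cells and by -1.64 and -1.90 on days 3.5 and 5.5, against -2.02 and -1.69 in Nkx2.2-/- cells.

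Genes past 2-fold on day 3.5 alone included Pde1a, a cyclic nucleotide phosphodiesterase, at 17.4 FPKM in WT and 0.265 FPKM in Nkx2.2-/- cells, and at 0.294 and 0.325 FPKM on day 5.5. The WT library of day 3.5 alone was high. It also stood apart from the WT libraries of that day in the larger, separately normalized table, whose mean was 0.0153 FPKM with a WT spread of 0.02. Cyp1b1, a cytochrome P450, stood at 5.10 and 0.450 FPKM and then at 0.364 and 0.0785 FPKM, and Ano1, a chloride channel, at 10.02 and 1.73 FPKM and then at 1.42 and 0.807 FPKM. Jam2, a junctional adhesion molecule, was among the higher ones, at 11.8 and 32.6 FPKM and then at 38.8 and 50.1 FPKM. Ifitm3, an interferon-induced membrane protein, stood at 31.9 and 81.2 FPKM and then at 56.4 and 76.4 FPKM. Lgals3, which encodes galectin-3, had a difference of 1.49 on day 3.5 against a WT spread of 1.58.

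On day 5.5 alone, Unc5a, a netrin receptor, was measured at 2.90 FPKM in WT and 10.4 FPKM in Nkx2.2-/- cells, after 6.86 and 7.08 FPKM on day 3.5. Its difference of 1.55 lay under a WT spread of 2.11. Col11a2, a fibrillar collagen, stood at 1.72 and 6.83 FPKM, and Doc2a, a calcium sensor of vesicle release, at 4.61 and 14.0 FPKM, differences of 1.52 and 1.42. Lower genes were Emp1, an epithelial membrane protein, at 49.8 and 12.5 FPKM, and Gfra2, the neurturin receptor, at 18.0 and 4.41 FPKM. In both the WT library of day 5.5 was the high one of the 4, since day 3.5 gave 12.7 and 8.75 FPKM for Emp1 and 3.17 and 3.12 FPKM for Gfra2. Over all listed genes with a value in the larger table, 44 of 45 past 2-fold on day 3.5 exceeded the WT spread of their day, and 33 of 45 on day 5.5. Of all genes past 2-fold with such a value, 95.9% and 90.2% did.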

How the data were processed

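Libraries were taken by genotype and day from the titles. FPKM values were deposited by the authors in tables normalized separately; the submitters' processing notes name TopHat2 2.0.4, HTSeq 0.6.1, Cufflinks 2.1.1, limma and GRCm38 (mm10), with no annotation given in the sources used here. The tables hold 3 columns that match none of the samples, and these were not used. The 37532 rows of the table used here gave 37514 identifiers after repeats were reduced to the row with the highest sum, and positions, lengths and types were taken from GENCODE M21, where 86.8% of them had an entry. FPKM gives no counts. From the steps between low values of genes with 1 transcript, depth was estimated at 10400000 to 12800000 fragments a library, and no counting interval is given. In each library, 46 to 59 genes had a 0 although another of the 4 reached 5 FPKM; such a 0 can be a failed estimate. Correlations of log2(FPKM + 1) across genes between the libraries, which are not over replicates, were 0.941 to 0.964.

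A gene was kept where any library reached 1 FPKM (15141 genes), and log2(FPKM + 1) of WT was subtracted from that of Nkx2.2-/- cells of the same day, in Python 3.11.15 with pandas 2.3.3 and numpy 2.4.6. Past 2-fold is a difference of 1 or more in size. A gene counted for both days had the same sign and differences at most 1 apart, and for 1 day alone was under 0.5 on the other. Each group being 1 library, nothing was tested; a fit of genotype with day as a term, which leaves 1 residual degree of freedom, was left out. The steps were tested on simulated data.

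Named were Nkx2-2; the 15 highest and 15 lowest genes of both days by the smaller difference; the 8 highest and lowest of each day alone, in both cases protein-coding, at 5 FPKM or more and never at 0; and measured members of 35 lists (506 genes, 500 in the table, 370 kept). Of the genes that the rule admits, the text gives those whose roles are known and summarises the rest. Some genes that the lists hold are counted but not reported by name. Slc18a3, Sox1, Tubb3, Foxc2, Erdr1 and Slc7a5 were not analysed here. The members and lists were chosen with earlier results of these data known. Alternatives were the pseudocount, the filter, the scaling, the treatment of zeros, gene type and a length trend.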

Additional observations from a re-analysis of the deposited data

Results flagged for a closer look

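Polr2b, which encodes a subunit of RNA polymerase II, stood out because its difference had opposite signs on the days. It was measured at 19.9 FPKM in WT and 7.68 FPKM in Nkx2.2-/- cells on day 3.5 and at 15.8 and 33.2 FPKM on day 5.5. The differences were -1.27 and 1.03, which are 2.29 apart, and this gap was not tested. In the other mutant Polr2b differed from WT by 0.30 on day 3.5 and by 0.18 on day 5.5. It was the only one of the 22 genes past 2-fold in opposite directions that was protein-coding, at 5 FPKM or more and never at 0.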

How the results depend on the processing

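The counts past 2-fold on day 3.5, on day 5.5 and on both days depended on how low values were treated. With a pseudocount of 0.1 they were 1442, 1417 and 474, and with a pseudocount of 5 they were 192, 174 and 74. Among genes at 5 FPKM or more they were 400 and 385 on the single days, and 151 on both. Among protein-coding genes they were 423, 405 and 130; this alternative tests fewer genes. The counts stayed within 1.5 times with no filter, median-of-ratios factors, quantile normalization, isolated zeros as missing and a length trend removed. Of 178 differences past 2-fold among named genes, none changed sign, and 84 stayed past 2-fold with a pseudocount of 5. Of 70 list medians, 7 changed sign among genes at 5 FPKM or more. No paired analysis was possible because the columns carry no replicate numbers to pair. A fit of genotype with day as a term, which pairs the genotypes by day, could have been made and was left out.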

Other observations

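Guidance, BMP and WNT genes outside the comparisons above held a few differences past 2-fold. Sema3a, a repulsive semaphorin, was measured at 3.32 FPKM in WT and 6.67 FPKM in Nkx2.2-/- cells on day 3.5 and at 0.991 and 4.77 FPKM on day 5.5, and its day 5.5 difference of 1.53 lay under a WT spread of 1.67. Nrp2, a semaphorin receptor, lay the other way at 17.6 and 8.01 FPKM and then at 46.4 and 27.3 FPKM. Of 29 measured guidance genes, 2 were past 2-fold on each day, both lower on day 3.5 and both higher on day 5.5, and the medians were 0.06 and 0.04. Of all genes, 4.63% and 4.48% were past 2-fold on those days.

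Wnt7a, a WNT ligand, differed by 0.94 and 0.92, past 2-fold on neither day, at 2.54 and 5.78 FPKM and then at 3.70 and 7.92 FPKM. Its WT spreads were 0.46 and 1.95. Wnt4 differed by -1.18 on day 5.5, at 13.8 and 5.53 FPKM. Among BMP and TGF-beta genes, Id4, an inhibitor of bHLH factors, was higher on day 3.5 at 6.96 and 15.7 FPKM, while its relative Id1 was lower at 64.3 and 31.0 FPKM. Ltbp1, which holds latent TGF-beta in the matrix, stood at 23.9 and 36.1 FPKM and then at 16.3 and 35.9 FPKM, past 2-fold on day 5.5 only.

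Dorsal neural tube genes were also read. Zic2, a zinc-finger factor, stood at 7.24 and 3.48 FPKM and then at 1.92 and 0.388 FPKM. Of 10 measured members of that list of 18, 9 lay below zero on day 3.5 and 6 on day 5.5, beside 53.6% of all genes, with medians of -0.58 and -0.11; after quantile normalization the second was 0.04.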
